A study of Mus musculus with 2 samples.

Results

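Dlk1 and 9 other imprinted genes, Meg3, Rian, Mirg, H19, Mest, Peg3, Plagl1, Ndn and Grb10, were followed through the differentiation of mouse brown adipocytes. They are 10 of 23361 genes with a value in the RNA-Seq table. The group was chosen on the measured ratio of Dlk1 in these same libraries, and the other genes were added as genes of the Dlk1 locus or of other imprinted loci. The values below that come from the ratio of D7 to D0 are therefore a description of the group and not a test of it. Only Dlk1, Meg3, Rian and Mirg lie around Dlk1, and the other 6 genes lie at other loci.

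RNA-Seq was performed on 1 library of brown preadipocytes (D0) and 1 library of fully differentiated brown adipocytes (D7). Both stages derive from interscapular brown fat of C57BL/6 mice taken as newborns (C57BL/6J in the study's methods), and neither carried a transgene or a deletion by the labels. Per the labels, the cells were grown in DMEM with 20% FBS and kept for 4 days before induction in differentiation medium, which is DMEM with T3 at 1 nM, insulin at 0.1 μM and FBS at 10%. The D0 library is from cells before induction. The D7 library is from cells that received dexamethasone at 2 μg/ml, indomethacin at 0.125 mM and IBMX at 0.5 mM for 2 days and then differentiation medium alone up to 7 days. The labels call the cells primary cultures, whereas the study's methods describe preadipocytes immortalized with large T antigen and partly other concentrations, and the sources used here do not settle which gave the RNA. Pups of either sex, 4 in all and 1 day old, were used, and whether their cells were pooled for a library is not stated in the sources used here. With 1 library per stage no difference has a replicate check, and a ratio compares these libraries rather than the stages. Intervals given here are exact 95% Clopper-Pearson intervals on recovered fragments and cover counting error only. RNA came from all cells of a dish, so fewer cells of a type and less RNA per cell cannot be told apart.

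Imprinted genes are transcribed mainly from 1 parental allele, and many of them act on growth. Dlk1, also called Pref-1, is a transmembrane protein of preadipocytes whose shed ectodomain inhibits adipogenesis. It is usually expressed from the paternal chromosome, while its neighbors Meg3, Rian and Mirg are long noncoding RNAs of the maternal chromosome that host microRNAs and small nucleolar RNAs. H19 is a maternal noncoding RNA beside the growth factor gene Igf2. Mest, Peg3, Plagl1 and Ndn are paternally expressed, and Grb10, an adaptor that dampens insulin receptor signaling, is mainly expressed from the maternal allele outside the brain. The mice were of 1 inbred strain and the values are totals per gene, so the parental origin of a transcript was not measured.

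The sequences before the starts of Dlk1, Meg3 and Rian are shown because these 3 neighbors had the highest, a near-even and the lowest ratio of the group. Each run holds the 250 bases before a RefSeq start on GRCm38.p6 (chr12:109452573-109452822, chr12:109540746-109540995 and chr12:109603695-109603944, all on the plus strand), and capitals mark CpG dinucleotides, the sites of DNA methylation.
Dlk1: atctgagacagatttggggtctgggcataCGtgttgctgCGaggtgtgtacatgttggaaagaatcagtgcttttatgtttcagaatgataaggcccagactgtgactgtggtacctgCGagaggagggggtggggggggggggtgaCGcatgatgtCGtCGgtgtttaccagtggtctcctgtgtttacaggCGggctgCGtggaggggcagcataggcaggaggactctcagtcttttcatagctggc
Meg3: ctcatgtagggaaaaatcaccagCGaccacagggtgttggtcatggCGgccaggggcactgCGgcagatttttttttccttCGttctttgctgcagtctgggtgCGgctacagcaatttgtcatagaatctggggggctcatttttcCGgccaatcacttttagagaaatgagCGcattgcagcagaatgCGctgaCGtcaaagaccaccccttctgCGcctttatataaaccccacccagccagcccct
Rian: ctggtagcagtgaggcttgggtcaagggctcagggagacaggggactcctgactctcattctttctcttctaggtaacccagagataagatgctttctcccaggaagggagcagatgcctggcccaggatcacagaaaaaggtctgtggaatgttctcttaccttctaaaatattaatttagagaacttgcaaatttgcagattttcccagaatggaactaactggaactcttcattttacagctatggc
The stretch of Dlk1 held 8 CpG, that of Meg3 10 and that of Rian 0. Windows of 300 bases, which add 50 bases after the start, were found for 9 of the 10 genes, all except H19. The median over 32851 such windows of the genome was 7 CpG. The 13 windows of the group ranged from 0 CpG for Rian to 45 for 1 of the starts of Grb10, and Plagl1 had 26. The letters TGCCGC, the core recognized by the imprint keeper ZFP57, were found on either strand in 5 of the 13 windows, beside 11.6% of all windows. These belong to 4 genes (Meg3, Mest, Plagl1 and Grb10), and the windows of Mest with the match overlap. GCCATNTT, a core of YY1 sites, was found in 0 of the 13 windows and in 6.05% of all windows. TATAAA was found in 1 window, the one of Meg3 whose first 250 bases are printed, with 1 match on each strand that overlap, and in 13.6% of all windows. A match is a description of the letters and not a measured site.

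Dlk1 was low in the D0 library and higher in the D7 library, and which cells of the dish held its RNA is not known. Its value was 3.57 FPKM (117 fragments) at D0 and 38.5 FPKM (1069 fragments) at D7. FPKM is the number of fragments per kilobase of transcript and per 1000000 fragments, so it allows levels of different genes to be compared. The ratio of D7 to D0 was 10.8 (95% interval 8.88 to 13.1), or 3.43 on the log2 scale. Of the 10 genes, Dlk1 had the lowest level at D0, and it was seventh in order at D7. Among all genes its rank by FPKM went from 9025 to 2189. Of 11967 genes above 0 in both libraries and with an FPKM of at least 1 in one of them, 350 (2.93%) had a larger ratio. Dlk1 (ENSMUSG00000040856.17) is annotated at chr12:109452823-109463336 on the plus strand of mm10, and no other annotated gene overlaps it.

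**Figure D1:**
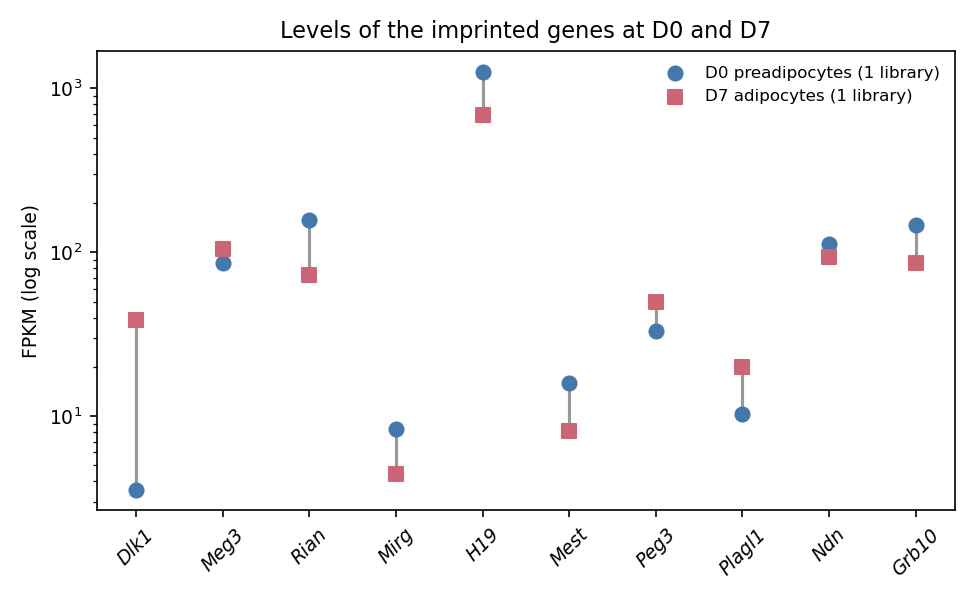
Levels of the 10 imprinted genes in FPKM on a log axis, with D0 as circles and D7 as squares, 1 library each, so no error bar is drawn. Dlk1 has the lowest D0 value (3.57) and lies at 38.5 at D7, while H19 is the highest in both libraries (1267 and 691).

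The maternal RNAs next to Dlk1 did not share its ratio, and they differed from each other. Meg3, a long noncoding RNA (ENSMUSG00000021268.17, chr12:109541001-109571726, plus strand), had 86.1 FPKM at D0 and 105 FPKM at D7. Its ratio was 1.22 (1.20 to 1.24). That direction is not stable to scaling: with values under 0.01 set to 0.01 and each library divided by its median, which shifts every log2 ratio by -0.35, the ratio of Meg3 was 0.954. Rian, which hosts many small nucleolar RNAs (ENSMUSG00000097451.10, chr12:109603940-109661716, plus strand), had 158 FPKM at D0 and 73.1 FPKM at D7. It was 2.16-fold lower at D7, with a ratio of 0.464 (0.453 to 0.474), and was the only one of the 10 genes past 2.0-fold in that direction. Mirg, a host of microRNAs (ENSMUSG00000097391.8, chr12:109729764-109749460, plus strand), had 8.36 FPKM (201 fragments) at D0 and 4.41 FPKM (90 fragments) at D7. Its ratio of 0.528 (0.407 to 0.680) was short of 2.0-fold lower, and its interval spans that threshold. Under the scaling by medians Mirg was at 0.413.

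Ratios between genes of 1 library do not depend on how the libraries were scaled. The level of Rian was 1.83 times that of Meg3 at D0 and 0.697 times that of Meg3 at D7, a 2.63-fold lower relation (0.381, 95% interval 0.370 to 0.391, from a normal approximation on the log scale). Mirg to Meg3 went from 0.0971 to 0.0420, a change of 0.433 (0.338 to 0.556). Against each other Rian and Mirg moved little, since Mirg to Rian went from 0.0530 to 0.0603, a change of 1.14 whose interval of 0.887 to 1.46 includes 1. So, along the maternal RNAs in order from Dlk1, both Rian and Mirg were lower relative to Meg3 at D7 than at D0. Meg3 was 24.2 times as high as Dlk1 at D0 and 2.73 times as high at D7. Fragment numbers of Rian rest on its longest transcript, so its level against Meg3 is approximate while the change of that relation is not affected by length. Whether reads were counted by strand is not stated in the sources used here. Meg3 overlaps Gm26906 on the opposite strand and Rian overlaps Gm26945 on its own strand, so their values may hold reads of these genes.

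At the far end of the locus, the deiodinase gene Dio3, whose enzyme inactivates thyroid hormone, was also higher at D7. Dio3 lies 826 kb from Dlk1 and had 0.662 FPKM (24 fragments) at D0 and 2.21 FPKM (68 fragments) at D7, a ratio of 3.34 (2.07 to 5.56). Its neighbor Dio3os, a transcript of the other strand, had 0.127 FPKM at D0 from 3 fragments and 1.10 FPKM at D7 from 24 fragments, so its ratio of 8.64 has a wide interval (2.86 to 48.9). Rtl1, a retrotransposon-derived paternal gene between Meg3 and Rian, had 0.0921 FPKM (12 fragments) at D0 and 0.141 FPKM (16 fragments) at D7, and a difference was not detectable at this depth (ratio 1.53, 0.696 to 3.63). A further row at the place of Rtl1, 6430411K18Rik, had 0.246 and 0.387 FPKM, and 3110009F21Rik was listed at 0 in both libraries. On the other side, the nearest genes before Dlk1 were Begain, Wdr25 and Wars, and none was past 2.0-fold (ratios of 1.31, 1.74 and 1.06). By the deposited values, the genes past 2.0-fold higher at the locus were thus Dlk1 at its start and Dio3 and Dio3os at its end. Meg3, Rtl1, Rian and Mirg between them were not, though the interval of Rtl1 includes 2.0-fold. Dio3 and Dio3os are low in level, and with a pseudocount of 1 both fall short of 2.0-fold.

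**Figure D2:**
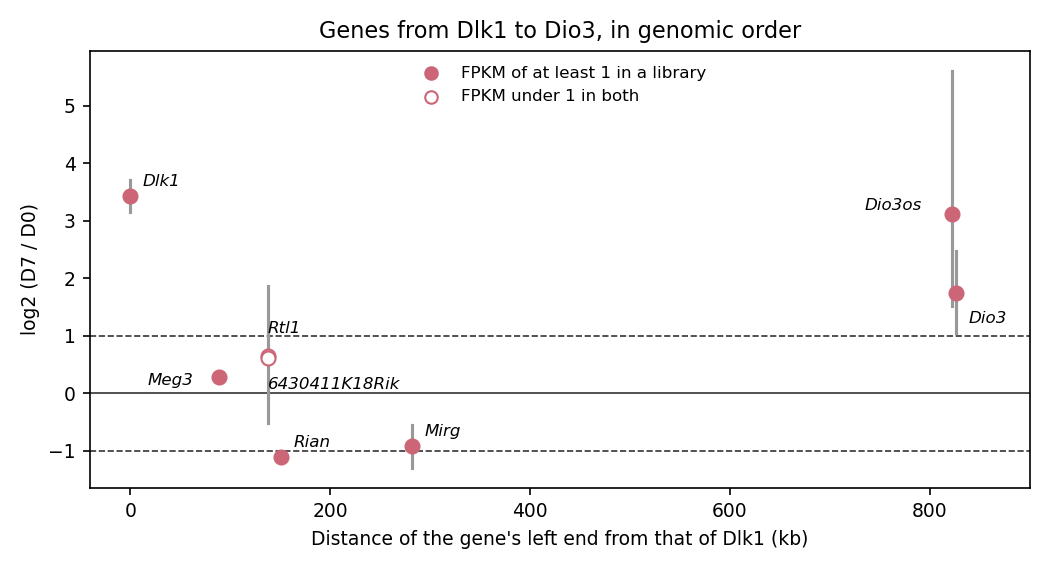
Log2 of the ratio of D7 to D0 for the 8 genes above 0 in both libraries from Dlk1 to Dio3, by distance in kb. Bars are 95% counting intervals where fragments were recovered (shorter than the marker for Meg3 and Rian), dashed lines mark 2.0-fold, and open circles mark genes under 1 FPKM in both libraries. Dlk1 (3.43) and, 826 kb away, Dio3 (1.74) are high and Rian is the lowest (-1.11). Meg3 (0.28) falls below 0 with libraries scaled by their medians (ratio 0.954).

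The small RNAs of the locus were not captured. Of the 73 rows from Dlk1 to Dio3, 64 were microRNAs or small nucleolar RNA clones, and all 64 were listed at 0 in both libraries. The same held for 646 of the 650 microRNA rows of the whole table, so these zeros give no level of a mature microRNA. RefSeq places 21 microRNA genes with 39 mature microRNAs inside the 10 genes, of which 14 genes lie in Mirg, 3 in Rian, 2 in Meg3, 1 in H19 and 1 in Mest. Examples are shown so that the products of the host transcripts can be recognized in small RNA data. Capitals mark the seed, bases 2 to 8, that pairs with targets.
mmu-miR-370-3p: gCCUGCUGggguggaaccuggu
mmu-miR-410-3p: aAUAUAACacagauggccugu
mmu-miR-453: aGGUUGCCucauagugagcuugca
mmu-miR-496a-5p: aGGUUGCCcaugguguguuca
mmu-miR-675-5p: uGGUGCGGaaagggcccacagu
mmu-miR-675-3p: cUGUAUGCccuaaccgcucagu
mmu-miR-335-5p: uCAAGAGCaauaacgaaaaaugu
The first 4 are of Rian (miR-370) and of Mirg (miR-410, miR-453 and miR-496a), miR-675 is cut from H19, and miR-335 lies in an intron of Mest. The 39 mature microRNAs had 38 different seeds. GGUUGCC, shared by miR-453 and miR-496a-5p of Mirg, was the only seed found more than once. Host levels went from 158 to 73.1 FPKM for Rian, from 8.36 to 4.41 FPKM for Mirg, from 1267 to 691 FPKM for H19 and from 15.9 to 8.15 FPKM for Mest.

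H19 was the most abundant of the group in both libraries and lower at D7. H19 (ENSMUSG00000000031.16, chr7:142575529-142578143, minus strand) had 1267 FPKM at D0, where it ranked 60 among all genes, and 691 FPKM at D7, where it ranked 111. The ratio was 0.546 (0.538 to 0.554), a 1.83-fold lower level that did not reach 2.0-fold. It reached it under scaling by medians, at 0.427. H19 alone made up 68.8% of the summed FPKM of the 10 genes at D0 and 59.1% at D7. Igf2, the paternally expressed growth factor gene 72.6 kb away that shares its enhancers with H19, had 234 FPKM at D0 and 158 FPKM at D7 (ratio 0.676, 0.661 to 0.690). Both genes of the pair were thus lower at D7, and H19 to Igf2 went from 5.42 to 4.38, a change of 0.808 (0.787 to 0.829). Mrpl23, a mitochondrial ribosomal protein gene next to them, had a ratio of 0.931.

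The paternally expressed genes at other loci went in different directions. Plagl1, or Zac1, a zinc finger factor that restrains the cell cycle (ENSMUSG00000019817.18, chr10:13060504-13131694, plus strand), had 10.3 FPKM (1119 fragments) at D0 and 20.0 FPKM (1855 fragments) at D7. Its ratio of 1.95 (1.81 to 2.10) was just short of 2.0-fold, with an interval that spans it. Peg3, a large zinc finger protein (ENSMUSG00000002265.16, chr7:6703892-6730431, minus strand), had 33.2 FPKM at D0 and 49.8 FPKM at D7, a ratio of 1.501 (1.45 to 1.55). The deposited table also lists Peg3as over Peg3, and the reads cannot be told apart without strand. Zim1, a zinc finger gene 9.5 kb from Peg3 that is expressed from the maternal allele, had the larger ratio of the pair. It went from 3.31 FPKM (534 fragments) to 13.1 FPKM (1792 fragments), a ratio of 3.95 (3.58 to 4.36).

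Mest, a hydrolase-like protein known as a marker of adipose tissue expansion (ENSMUSG00000051855.15, chr6:30723547-30748465, plus strand), was lower at D7. It had 15.9 FPKM (814 fragments) at D0 and 8.15 FPKM (354 fragments) at D7. The ratio of 0.512 (0.451 to 0.581) lay just short of 2.0-fold lower, and it was 0.401 under scaling by medians. Copg2, whose annotated span overlaps Mest on the opposite strand, was near even at 21.1 and 22.4 FPKM (ratio 1.06, 0.994 to 1.14). In the coordinates deposited with the FPKM values, Copg2 starts 61.1 kb past Mest. The antisense gene Gm44296 is also annotated over Mest. Ndn, or necdin, a growth suppressor that binds E2F factors (ENSMUSG00000033585.5, chr7:62346569-62350262, plus strand), had 113 FPKM at D0 and 93.5 FPKM at D7. Its ratio was 0.828 (0.801 to 0.856), and Gm32061 overlaps it on the opposite strand. Of the other genes of its cluster, Peg12 was lower at D7, from 2.80 FPKM (148 fragments) to 1.07 FPKM (48 fragments), a ratio of 0.382 (0.270 to 0.532). Mkrn3 was near 0.3 FPKM in both libraries (0.315 and 0.301), and Magel2 was listed at 0 at D0 and had 0.0122 FPKM at D7.

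Grb10, which binds the activated insulin and IGF1 receptors and holds back their signaling (ENSMUSG00000020176.17, chr11:11930508-12038683, minus strand), was lower at D7. It had 147 FPKM (15435 fragments) at D0 and 86.4 FPKM (7697 fragments) at D7, a ratio of 0.587 (0.571 to 0.603). Under scaling by medians it was 0.459. Its neighbor Fignl1, a DNA repair ATPase, went from 1.80 FPKM (108 fragments) to 0.335 FPKM (17 fragments), a ratio of 0.186 (0.104 to 0.310). Of 15 genes of growth factor signaling around Grb10, H19 and Igf2, 4 were at least 2.0-fold higher at D7, 2 were lower and 9 lay between, beside 18.5% higher and 13.2% lower of all genes. Among the higher ones were the ligand Igf1 (5.76 to 26.5 FPKM, ratio 4.60), the insulin receptor Insr (5.90 to 18.6 FPKM, 3.16) and the docking protein Irs2 (2.49 to 6.43 FPKM, 2.58). The lower ones were Grb14, the closest relative of Grb10 (29.1 to 14.2 FPKM, 0.489), and the RNA-binding protein Igf2bp1 (3.92 to 1.75 FPKM, 0.447). The IGF1 receptor Igf1r went from 12.6 to 8.24 FPKM (0.654). The list's median log2 ratio was -0.18, beside 0.02 over all genes above 0 in both libraries.

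As a group, 8 of the 10 genes lay between 2.0-fold lower and 2.0-fold higher. All 10 were above 1 FPKM in both libraries. At 2.0-fold, 1 of 10 (10%) was higher at D7, Dlk1, where 18.5% of all 14986 genes above 0 in both libraries were, and 1 of 10 (10%) was lower, Rian, where 13.2% were. Among the 11967 genes that also had at least 1 FPKM in a library, these shares were 15.6% and 11.9%. With libraries scaled by their medians 1 gene was higher and 5 were lower (Rian, Mirg, H19, Mest and Grb10). That scaling lowers the log2 ratio of every gene by 0.35, and the shares of all genes under it are not given here. The count of 5 therefore has no background here and is not read as a trait of the group. On the lower side, Rian (0.464) lay just inside the threshold and Mest (0.512) just outside it. On the higher side Plagl1 (1.95) lay just outside it, and Dlk1 (10.8), the only gene inside, was far from it. At 1.5-fold, a threshold added after the data were seen, 3 of 10 were higher (Dlk1, Plagl1 and Peg3) beside 27.7% of all genes, and 5 were lower (Rian, Mest, Mirg, H19 and Grb10) beside 23.6%. The median ratio of the 10 was 0.707 (log2 -0.52), and that of all genes was 1.01. Each interval excluded 1, which says only that counting error is smaller than each difference.

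The order of levels also changed. At D0 it ran from H19 through Rian, Grb10, Ndn, Meg3, Peg3, Mest, Plagl1 and Mirg to Dlk1. At D7 it ran from H19 through Meg3, Ndn, Grb10, Rian, Peg3, Dlk1, Plagl1 and Mest to Mirg. Rian and Grb10 at D0 (158 and 147 FPKM), and Meg3, Ndn and Grb10 at D7 (105, 93.5 and 86.4 FPKM), were close neighbors, and no spread between libraries is known by which to order them. The ratio of the highest to the lowest of the 10 was 355 at D0 and 157 at D7. By the allele from which each gene is usually expressed, the 5 paternal genes had ratios from 0.512 to 10.8 (median 1.501, 3 above 1) and the 5 maternal genes ratios from 0.464 to 1.22 (median 0.546, 1 above 1). With Meg3 at 0.954 under scaling by medians, 0 of the 5 maternal genes were above 1. Of the 14986 genes above 0 in both libraries, 7585 had a ratio above 1. Meg3, Rian and Mirg are of 1 locus, and the other imprinted genes were not sorted by allele. Maternal Zim1 was higher and paternal Igf2 lower at D7, so the values of these 10 do not describe maternal or paternal genes in general.

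**Figure D3:**
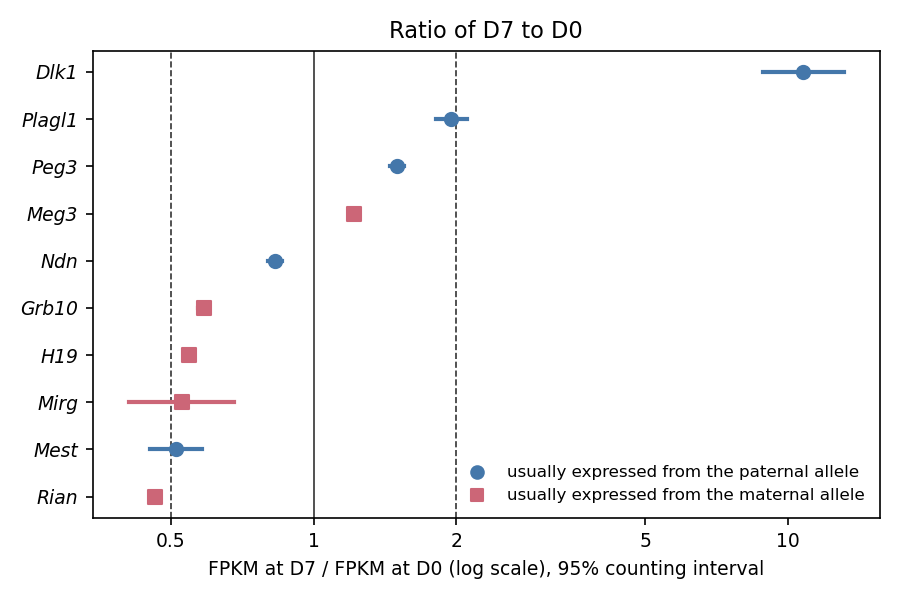
Ratio of FPKM at D7 to that at D0 on a log axis for each gene, with 95% counting intervals (some shorter than the marker), circles for genes usually expressed from the paternal allele and squares for the maternal allele. Solid and dashed lines mark 1 and 2.0-fold. Dlk1 stands at 10.8 and Rian at 0.464, and the other 8 lie between 0.5 and 2.0. Meg3 (1.22) is 0.954 with libraries scaled by their medians.

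Other imprinted genes were found on both sides. Of 61 on the list, 60 had a value and 51 were above 0 in both libraries. Of these 51, 8 were at least 2.0-fold higher at D7, 8 were at least 2.0-fold lower and 35 lay between, with a median log2 ratio of 0.14, beside 18.5% and 13.2% of all genes and a median of 0.02. The balance depends on the setting. With a floor of 0.01 and libraries scaled by their medians, 9 were higher and 14 lower. That floor also gives ratios to genes listed at 0, so these counts are not of the 51 alone. With a pseudocount of 1, 4 were higher and 2 lower. Shares of all genes under these settings are not given here. With at least 1 FPKM in a library, 38 remained, 5 of them higher and 5 lower, beside 15.6% higher and 11.9% lower of all such genes. The higher ones were Ampd3, a deaminase of AMP (4.28 to 25.3 FPKM, ratio 5.91), Zim1, Dio3, Cdkn1c, the cell cycle inhibitor p57 (20.4 to 60.7 FPKM, 2.97), and the ubiquitin ligase Herc3 (1.43 to 3.96 FPKM, 2.76). The lower ones were the amino acid transporter Slc38a4 (4.41 to 0.730 FPKM, ratio 0.166), Igf2r, the receptor that clears IGF2 (113 to 34.2 FPKM, 0.303), the protease inhibitor Tfpi2 (3.15 to 1.12 FPKM, 0.353), Peg12, and the retrotransposon-derived Peg10 (2.61 to 1.22 FPKM, 0.465). Ppp1r9a, at 0.0746 and 0.713 FPKM, had a ratio of 9.56 (5.58 to 17.6), the largest ratio of the 51. Gnas, the most abundant of the list, was near even (1058 and 1024 FPKM). Of the 9 genes not above 0 in both, Calcr, Ins2, Kcnk9 and Rasgrf1 were listed at 0 in both libraries, Kcnq1, Magel2 and Slc22a3 at D0 alone, and Klf14 and Phlda2 at D7 alone. Slc22a3 had 0 fragments at D0, which allows up to 0.0420 FPKM, and 0.413 FPKM (25 fragments) at D7.

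**Figure D4:**
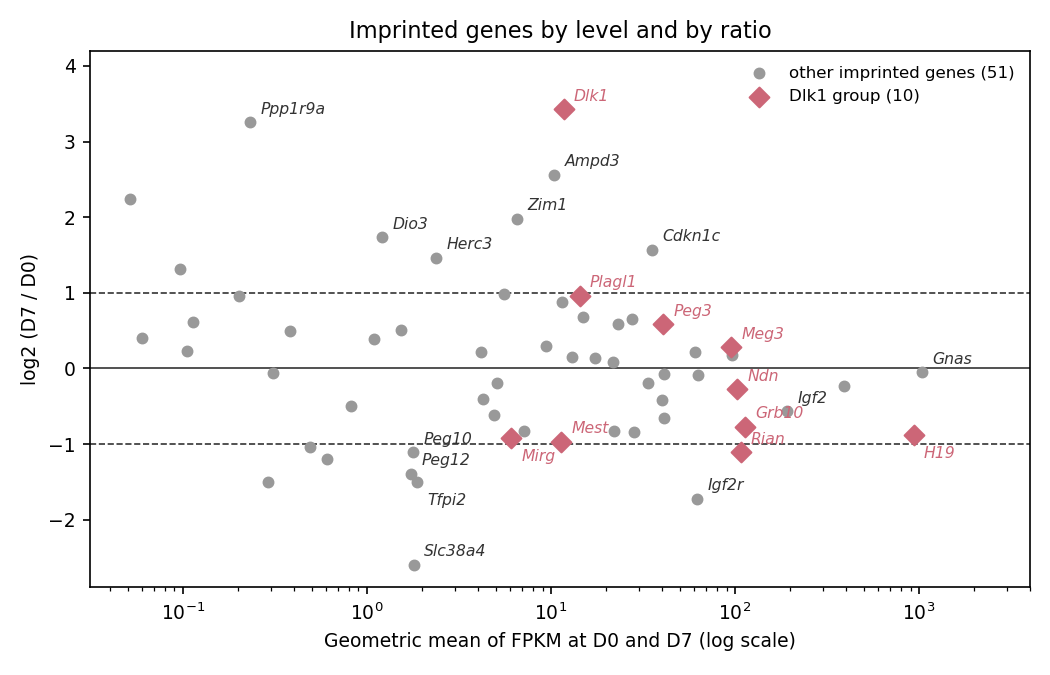
Log2 of the ratio of D7 to D0 against the geometric mean of both FPKM values (log axis) for Dlk1 and the 9 genes described with it (diamonds) and 51 other imprinted genes (circles) above 0 in both libraries, 1 library per stage. Dashed lines mark 2.0-fold. Dlk1 (3.43) is the uppermost point, and 8 of the 51 others lie above and 8 below the lines. Meg3 (0.28) lies below 0 with libraries scaled by their medians.

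Among 17 genes for the shedding of Dlk1, its relatives and its proposed effectors, 0 were at least 2.0-fold higher at D7 (18.5% of all genes), 5 were lower (13.2% of all genes) and 12 lay between (median log2 -0.24). Adam17, the protease that releases the Dlk1 ectodomain, had 16.9 FPKM at D0 and 25.5 FPKM at D7 (ratio 1.51, 1.41 to 1.61). Fn1, fibronectin, which binds soluble Dlk1, was lower at D7, from 1210 to 337 FPKM (0.279), as was its integrin subunit Itga5, from 112 to 28.7 FPKM (0.257). Sox9, a factor that Dlk1 keeps up in preadipocytes through the MEK and ERK kinases, had 5.99 FPKM at D0 and 2.98 FPKM at D7, at the threshold (0.498, 0.422 to 0.584). The Notch target Hes1 went from 27.5 to 10.6 FPKM (0.386). The homolog Dlk2 had 0.448 FPKM (15 fragments) and 0.162 FPKM (5 fragments), and its ratio of 0.363 was within counting error of 1 (0.112 to 1.14). Cebpb and Cebpd, which act early in adipogenesis, had ratios of 0.650 and 0.998, and the receptors Notch1 and Notch3 ratios of 1.49 and 1.91.

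The genes closest to Dlk1 in level at both stages were found by the distance in log2 FPKM over the 2 libraries, which says nothing of function. They were the magnesium transport protein Cnnm2 (3.62 and 37.4 FPKM), the lipid antigen-presenting Cd1d1 (4.11 and 45.3 FPKM), the angiotensin receptor Agtr2 (4.27 and 32.5 FPKM), Mfsd12 (4.22 and 49.5 FPKM) and the fatty acid transporter Slc27a1 (3.70 and 28.4 FPKM). The distance was 0.0469 for Cnnm2 and 0.441 for Slc27a1.

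Markers of cell types moved with the stages as well. Their counts stand beside 18.5% higher and 13.2% lower of all genes above 0 in both libraries. Of 12 adipocyte markers, 9 were above 0 in both libraries and all 9 were over 2.0-fold higher at D7 (median log2 ratio 9.49). The other 3, Lep, Ucp1 and Cidea, were listed at 0 at D0 alone. At D7 they had 8.74, 4.57 and 24.4 FPKM, so the brown marker Ucp1 was the lowest of these 3. Of 12 preadipocyte and stromal markers, 1 was higher, Cd34 (1.85 to 15.4 FPKM), and 4 were lower, Pdgfrb, Col1a1, Thy1 and Col1a2, while Pdgfra was near even (52.1 and 50.7 FPKM). Their summed level was 6911 FPKM at D0 and 3905 FPKM at D7, with a median log2 ratio of -0.66. Postn and Vim were still at 752 and 1128 FPKM at D7.

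Of 11 macrophage markers with a value, 10 were at least 2.0-fold higher at D7 (median log2 2.19). The summed level of the 11 was 153 FPKM at D0 and 552 FPKM at D7, of which Lyz2 made 111 and 286 FPKM. Mrc1 had the largest ratio (35.8) and Cd14 the smallest (1.06). Ptprc and Itgam, which define leukocytes, were at 1.51 and 4.07 FPKM at D7 (ratios 4.56 and 4.22). Of 8 endothelial markers, 6 were above 0 in both libraries, 2 of these higher, 1 lower and 3 between, and none exceeded 1.62 FPKM. Of 10 skeletal muscle markers, 5 were above 0 in both libraries, 0 higher, 2 lower and 3 between, with a median log2 ratio of -0.92. Their summed level was 52.8 FPKM at D0 and 5.68 FPKM at D7, of which Acta1 made 45.4 and 1.73 FPKM. Myod1, Myf5, Pax7 and Ckm were listed at 0 in both libraries. Des had 5.745 FPKM at D0 and 3.03 FPKM at D7, and Pax3 had 1.07 and 0.799 FPKM. Of 10 proliferation markers, 9 were lower at D7 and 1 lay between (median log2 -2.16). The part of these shifts in the values of the 10 imprinted genes was not tested.

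**Figure D5:**
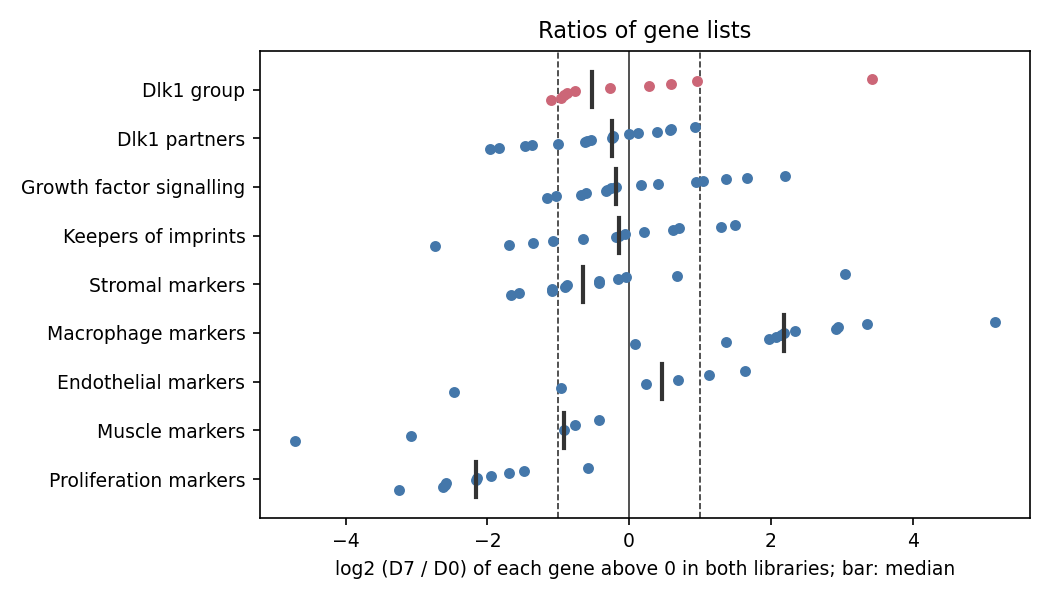
Log2 of the ratio of D7 to D0 for each gene above 0 in both libraries, 1 row of points for each of 9 lists (adipocyte markers, with a median of 9.49, are not drawn), with a bar at the median and dashed lines at 2.0-fold, 1 library per stage. The 10 imprinted genes have a median of -0.52, with Dlk1 at 3.43 apart on the right, and the medians drawn range from -2.16 for proliferation to 2.19 for macrophage markers. Meg3 lies below 0 with libraries scaled by their medians (ratio 0.954).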

How the data were processed

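RNA-Seq of mRNA fractions isolated from total RNA was analysed for 1 library of brown preadipocytes (D0) and 1 of brown adipocytes (D7). The authors removed low-quality reads, duplicates and ribosomal RNA reads, aligned the rest to mm10 with SOAP2 at up to 5 mismatches, and deposited for each gene the FPKM of both libraries. The submitters' processing notes name Bowtie2 and mm10 without a role. The table has 27324 rows, of which 3963 without a value were left out. Ratios of D7 to D0 were taken from the deposited FPKM for genes above 0 in both libraries, without pseudocount or rescaling. A gene was called at 2.0-fold, the study's threshold, but the study's folds were not these plain ratios. It gives a fold for Klf14, whose deposited value at D7 is 0. It also reports more genes lower than higher, whereas 2767 were higher and 1980 lower here. The calls here are therefore not the study's calls. With 1 library per stage no p-value could be computed.

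Fragments were recovered from 649 single-exon genes of at least 600 bp, as FPKM times length and a denominator of 21470750 fragments at D0 and 18266002 at D7. Length was corrected by 179 and 182 bp. All 92 and 97 values of up to 20 fragments were then whole within 0.1 (100%). Other genes used the length of the named transcript, or the longest one (Rian and H19), in GENCODE M21, so their fragment numbers are approximate. The method was tested on simulated data. Tables and intervals were made with scipy 1.17.1, pandas 2.3.3 and numpy 2.4.6 under Python 3.11.15, and plots with matplotlib 3.10.9.

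Named genes were the 10 members, rows from Dlk1 to Dio3, the 3 nearest rows on each side of a member, genes of the lists past 2.0-fold at 1 FPKM or that answer a statement on their list, and the 5 genes closest to Dlk1. An item of the growth factor list is not reported here by name. The members and lists were chosen with earlier results of these data known, and the scaling by medians had been worked out earlier from these data. Alternatives were pseudocounts of 0.1 and 1, conversion to TPM, centring on the median ratio, scaling by the upper quartile, a floor of 0.01 with scaling by the library median, a minimum of 1 FPKM, and 4.0-fold and, added after the data were seen, 1.5-fold thresholds.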

Additional observations from a re-analysis of the deposited data

How the results depend on the processing

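The ratio of Dlk1 was 8.64 with a pseudocount of 1 and 8.45 with a floor of 0.01 and scaling by library medians, and stayed above 2.0 in each. At 1.5-fold, 3 of the 10 genes were higher and 5 lower. At 4.0-fold 0 were lower, and with the scaling by medians 5 were, Rian, Mirg, H19, Mest and Grb10. Over all alternatives the ratio of Rian ran from 0.363 to 0.467 and that of Plagl1 from 1.53 to 1.95, and Meg3 went below 1 with the scaling by medians alone. Of the other imprinted genes, 4 were higher and 2 lower with a pseudocount of 1, 5 and 5 with at least 1 FPKM, 3 and 1 at 4.0-fold, and 14 and 13 at 1.5-fold, while 14 were lower with the scaling by medians. Their median log2 ratio was 0.01 with a pseudocount of 1, 0.02 with at least 1 FPKM and -0.31 with the scaling by medians, each beside a main value of 0.14. The shift of -0.35 that the scaling gives to each log2 ratio accounts for its values by construction. No share over all genes is given for the pseudocounts, 4.0-fold or that scaling, so those counts have no background here. Depth limits Dio3os, Rtl1 and Dlk2, which rest on few fragments. No paired analysis was possible because each stage has 1 library.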

Other observations

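Genes that write, read or keep imprints were measured beside the imprinted genes. Of 14 on that list, 13 were above 0 in both libraries, 2 were at least 2.0-fold higher at D7, 4 were lower and 7 lay between (median log2 -0.15), beside 18.5% higher and 13.2% lower of all genes above 0 in both. Uhrf1, which brings the maintenance DNA methyltransferase to newly copied DNA, went from 5.76 FPKM (409 fragments) to 0.861 FPKM (52 fragments), a ratio of 0.149 (0.110 to 0.200). Dnmt1, that methyltransferase, went from 12.4 to 4.83 FPKM (0.390, 0.350 to 0.433). Of 10 proliferation markers, 9 were also lower at D7, and their part in these values was not tested. Zfp57, the zinc finger protein that holds methylation at imprinting control regions, went from 6.88 FPKM (268 fragments) to 2.11 FPKM (70 fragments), a ratio of 0.307 (0.233 to 0.401). Its partner Trim28 went from 65.8 to 31.2 FPKM (0.475, 0.449 to 0.502). Zfp445, another zinc finger protein of the list, went the other way, from 7.245 to 11.8 FPKM (1.63, 1.495 to 1.77), short of 2.0-fold. In contrast, the de novo methyltransferase Dnmt3a went from 3.81 to 9.36 FPKM (2.45, 2.25 to 2.68), and Tet2, which oxidizes methylated cytosine, from 0.942 to 2.66 FPKM (2.82, 2.37 to 3.38). Ctcf, the insulator protein of the H19 and Igf2 locus, was near even (0.904, 0.823 to 0.992), as was Yy1 (0.964, 0.918 to 1.01). Dppa3 had 0 fragments at D0 and 1 fragment at D7. DNA methylation was not measured in these libraries.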
